A study of Mus musculus with 6 samples.

Results

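Acute-phase proteins and secreted defence genes were followed in fibroblasts sorted from ventral skin, which is nipple-like in K14-PTHrP (KrP) transgenic mice, and from the same site in wild-type (WT) littermates. The group comprised 10 genes of 22180 measured, namely Saa1, Saa2, Saa3, Lbp, Lcn2, Hp, Slpi, A2m, Pla2g2e and Cd14, and was assembled around opposite differences of Saa3 and Lbp between KrP and WT fibroblasts in these same samples. Each gene was read from its own probe set, that is, one annotated to a single gene. Of the 10 genes, 9 had such a probe set, 1 each, and Saa1 shared its only one with Saa2. Because the KrP-WT contrast was used to choose the genes, their differences are given as a description without p-values.

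The series held 3 KrP and 3 WT samples on a C57BL/6 background, all from female mice aged 8 to 12 weeks, with 1 array per sample. The KrP transgene places parathyroid hormone-related protein (PTHrP) under the keratin 14 promoter, which is active in basal keratinocytes, so the fibroblasts measured are neighbours of the cells that express it. Cells from 3 mice were pooled before sorting and collected as viable, CD140-positive cells negative for CD31, CD45, CD117 and CD49f. The labels do not say whether the 3 mice served 1 sample or all samples of a genotype, so spread between samples may be technical. The descriptions of KrP 2 and KrP 3 name a different keratin, but K14 stands in the other labels of both samples and was used.

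Acute-phase proteins are secreted in large amounts, mainly by the liver, when interleukin 6 and interleukin 1 signal infection or injury, and several are also made locally by fibroblasts, epithelia and macrophages. Serum amyloid A proteins (Saa1, Saa2, Saa3) are lipid-carrying proteins, of which Saa3 is the form best known from tissues other than liver in the mouse. Lipopolysaccharide-binding protein (Lbp) hands bacterial lipopolysaccharide to Cd14, which passes it to the receptor pair Tlr4 and Ly96. Slpi inhibits neutrophil serine proteases, A2m traps proteases of many classes, Pla2g2e is a secreted phospholipase A2, Lcn2 withholds iron from bacteria by binding siderophores, and Hp binds free haemoglobin.

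The promoter sequences of 5 of these genes are shown because Saa3 and Slpi were higher and Pla2g2e lower in KrP fibroblasts, with Saa1 and Saa2 beside Saa3 since they share a probe set. They come from RefSeq (build GRCm38.p6), from which a promoter was taken for 6 of the 10 genes, and not for Lbp, Hp, A2m or Cd14. The sequences run 5′ to 3′ on the strand of the gene, from 250 bases before to 50 after its start. Capitals mark matches, on either strand, to letters used by 3 classes of factors that act on acute-phase and inflammatory genes: TTGCNNAA for C/EBP, TTCNNNGAA for STAT and TGANTCA for AP-1.
Saa3, chr7:46715627-46715926, minus strand: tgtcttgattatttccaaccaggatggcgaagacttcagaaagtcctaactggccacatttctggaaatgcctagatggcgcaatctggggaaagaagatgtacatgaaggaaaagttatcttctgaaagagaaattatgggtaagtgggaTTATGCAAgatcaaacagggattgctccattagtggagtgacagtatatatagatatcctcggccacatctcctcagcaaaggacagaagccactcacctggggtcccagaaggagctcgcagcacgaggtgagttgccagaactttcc
Saa1, chr7:46742931-46743230, minus strand: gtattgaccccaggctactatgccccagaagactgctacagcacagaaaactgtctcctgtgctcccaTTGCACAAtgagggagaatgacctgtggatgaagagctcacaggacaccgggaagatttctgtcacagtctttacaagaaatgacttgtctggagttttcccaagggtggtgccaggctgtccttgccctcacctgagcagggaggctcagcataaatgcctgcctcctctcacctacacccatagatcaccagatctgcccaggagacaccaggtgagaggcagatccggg
Saa2, chr7:46751583-46751882, plus strand: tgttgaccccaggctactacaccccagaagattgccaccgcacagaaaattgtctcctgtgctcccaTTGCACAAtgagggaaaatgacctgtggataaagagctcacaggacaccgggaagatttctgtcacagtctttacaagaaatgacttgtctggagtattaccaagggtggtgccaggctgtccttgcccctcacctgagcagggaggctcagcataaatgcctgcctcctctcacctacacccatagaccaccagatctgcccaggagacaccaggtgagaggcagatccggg
Slpi, chr2:164356458-164356757, minus strand: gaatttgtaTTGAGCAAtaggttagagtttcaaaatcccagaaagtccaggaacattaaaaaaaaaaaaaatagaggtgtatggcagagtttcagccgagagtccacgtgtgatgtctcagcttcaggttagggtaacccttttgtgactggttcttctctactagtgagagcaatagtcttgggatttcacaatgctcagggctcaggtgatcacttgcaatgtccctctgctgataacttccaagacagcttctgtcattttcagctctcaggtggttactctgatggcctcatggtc
Pla2g2e, chr4:138877692-138877991, plus strand: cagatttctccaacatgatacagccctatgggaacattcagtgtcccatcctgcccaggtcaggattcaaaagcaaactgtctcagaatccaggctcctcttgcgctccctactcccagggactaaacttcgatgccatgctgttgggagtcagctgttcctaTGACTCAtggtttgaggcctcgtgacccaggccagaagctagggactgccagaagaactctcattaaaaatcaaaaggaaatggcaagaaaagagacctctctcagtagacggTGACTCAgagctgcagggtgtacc
The C/EBP letters occurred once each in Saa3, Saa1, Saa2 and Slpi, and in 10.8% of all 32851 promoters of this length. The promoter of Lcn2, found but not shown, also held them once, as TTGCTCAA on the strand of the gene. Lcn2 was not among the genes called below. In Saa3 the match was TTATGCAA on the opposite strand, and in Slpi it was TTGAGCAA on the opposite strand. Saa1 and Saa2 both held TTGCACAA on the strand of the gene. Pla2g2e held TGACTCA at 2 places, and the AP-1 letters occurred in 7.81% of all promoters. No STAT letters were found in the 5 promoters shown, against 8.3% of all promoters. None of these matches overlapped another. The promoters of Saa1 and Saa2 were identical at 287 of 300 aligned bases (95.7%), while Saa3 matched Saa1 at 64.0% and Saa2 at 62.7%. A match describes letters in this window and not a bound site.

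The deposited values are log2 expression values per probe set, normalised between arrays by the authors. Array medians lay between 6.34 and 6.43. The background guide used below is 6.28, the 95th percentile of 1105 olfactory receptor genes, most of which should be silent in skin fibroblasts. Each log2 fold change is given as KrP minus WT and was fitted with limma over the whole table. A gene counts as called where its p, adjusted by Benjamini-Hochberg over all genes, is under 0.05. Pdgfra, which encodes CD140a, lay between 13.42 and 13.54 in KrP samples and between 13.13 and 13.32 in WT samples. Ptprc, which encodes CD45, lay under the background guide on all 6 arrays. Other genes of the excluded markers did not. Pecam1 (CD31) lay between 6.49 and 7.13 and Itga6 (CD49f) between 6.49 and 8.16, both above the guide on all 6 arrays. Kit (CD117) lay above it on 2.

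Of the 9 genes with their own probe set, 3 were called higher in KrP fibroblasts (Saa3, Slpi and A2m), 2 were called lower (Lbp and Pla2g2e) and 4 were not called. Among all genes 2.18% were called, 1.15% higher and 1.03% lower. Since the contrast chose the genes, nothing is read from that count. The median log2 fold change was 0.55 over the 9 genes and 0.01 over all genes. KrP and WT values did not overlap for the same 5 genes, as for 20.3% of all genes. With the replicate number as a block, 6 of the 9 were called, Cd14 being the addition, where 8.35% of all genes were called. Fits with a sample left out reuse the samples that chose the genes, so they describe the calls and do not support them. The calls of Saa3, Slpi and Pla2g2e stood whichever of the 6 samples was left out. That of Lbp ended without KrP 3 (log2 fold change -2.50), WT 2 (-2.13) or WT 3 (-2.24), and that of A2m without KrP 1 (0.72), KrP 3 (0.70), WT 1 (0.68), WT 2 (0.87) or WT 3 (0.78).

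**Figure D1:**
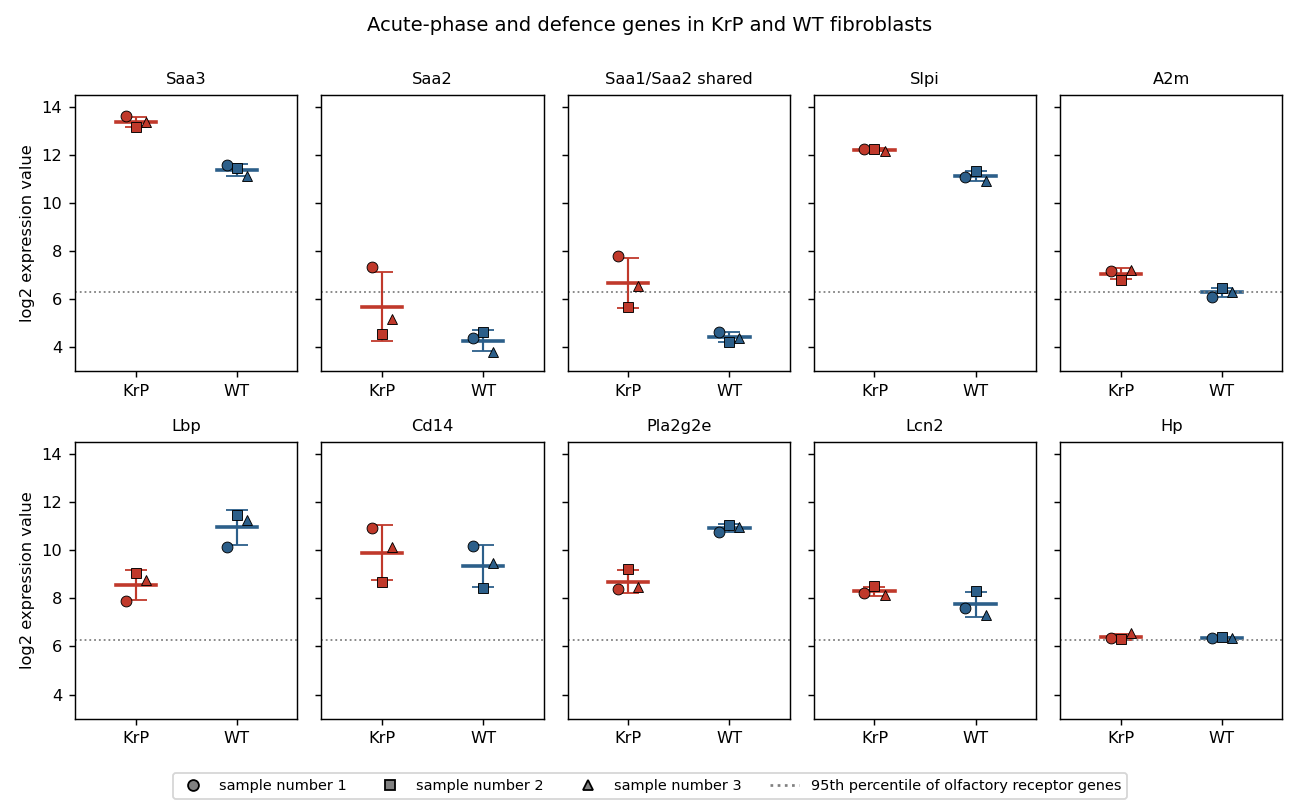
Log2 expression value of each gene in the 3 KrP samples (left, red) and the 3 WT samples (right, blue). Symbols give the sample number, horizontal bars the mean and vertical bars the SD (n = 3 each), and the dotted line is the 95th percentile of olfactory receptor genes, 6.28. Saa3, the shared Saa1/Saa2 probe set, Slpi and A2m lay higher in all KrP samples than in any WT sample, and Lbp and Pla2g2e lay lower.

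Among the serum amyloid A genes, Saa3 had the larger separation relative to its spread. Saa3 had log2 values of 13.59, 13.17 and 13.36 in KrP 1, 2 and 3, against 11.56, 11.45 and 11.10 in WT 1, 2 and 3. The lowest KrP sample lay above the highest WT sample, and both groups were far above the background guide. The difference was 4.01-fold (log2 fold change 2.00 ± 0.14 SE), and within the sample numbers 1, 2 and 3 it was 2.03, 1.72 and 2.26.

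Saa2 behaved less evenly. Its own probe set had values of 7.31, 4.56 and 5.18 in KrP samples, against 4.39, 4.62 and 3.78 in WT samples. KrP 1 was the single array above the background guide, and KrP 2 lay below WT 2. The log2 fold change was 1.42 ± 0.62 SE with KrP 1 and 0.61 without it. The probe set that Saa1 and Saa2 share had values of 7.77, 5.68 and 6.55 in KrP samples, against 4.64, 4.23 and 4.39 in WT samples. These groups did not overlap, KrP 1 was again the highest sample, and the difference of the means was 2.25 on the log2 scale, or 1.69 without KrP 1. The 3 WT values and KrP 2 of this shared probe set lay below the background guide, where differences are compressed. The closeness of the genes means that neither probe set can be assigned to Saa1 or Saa2 alone with certainty.

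Saa4, a constitutive serum amyloid A gene that lies between Saa3 and Saa1 on chromosome 7, had 4.83 ± 0.25 in KrP and 4.91 ± 0.27 in WT samples (SD, n = 3 each; limma adjusted p = 0.885). It was under the background guide on all arrays. Among the protein-coding genes nearest to the 9 members, 3 on each side, 48 had values, of which 1 was called higher and none lower. Of all genes 2.18% were called, so nothing is read from that count. The called neighbour was Tph1, an enzyme of serotonin synthesis that lies 2 genes from Saa3, and it is named after its values were seen. Tph1 averaged 6.58 ± 0.19 in KrP and 5.50 ± 0.11 in WT samples (SD, n = 3 each; log2 fold change 1.08 ± 0.13 SE, limma adjusted p = 0.00707, or 0.0511 without WT 3), and its 3 WT values lay under the background guide. The median log2 fold change of the 48 neighbours was 0.02.

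The lipopolysaccharide-handling pair did not move alike. Lbp had log2 values of 7.87, 9.04 and 8.77 in KrP 1, 2 and 3, against 10.12, 11.47 and 11.27 in WT 1, 2 and 3. Every KrP sample lay below every WT sample, although samples within each group spread over more than 1 log2 unit. Lbp was 5.25-fold lower in KrP fibroblasts (log2 fold change -2.39 ± 0.40 SE). Taken by sample number the differences were -2.25, -2.43 and -2.50, a narrower range than the spread within either group, and the SE with the replicate block was 0.10.

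Cd14, the receptor that accepts lipopolysaccharide from Lbp, had values of 10.91, 8.67 and 10.12 in KrP 1, 2 and 3, against 10.16, 8.43 and 9.46 in WT 1, 2 and 3. The groups overlapped almost wholly, and sample 2 was the lowest in both. The log2 fold change was 0.55 ± 0.59 SE, or ± 0.13 with the replicate block, and the differences by sample number were 0.75, 0.24 and 0.66. Without KrP 1 the log2 fold change was 0.04, without KrP 2 it was 1.16, without WT 1 it was 0.96 and without WT 2 it was 0.09. Cd14 is also abundant on macrophages. Of 15 macrophage and monocyte markers, 10 lay at or below the background guide on average, among them Ptprc and Lyz2, and the log2 summed level of the list was 10.77 to 10.86 in KrP and 10.59 to 11.01 in WT samples. Csf1r, the receptor of the macrophage growth factor, was the only one of them called, at 7.92 ± 0.07 in KrP and 7.19 ± 0.19 in WT samples (SD, n = 3 each; limma adjusted p = 0.0347, or 0.0604 with quantile normalisation). Leaving out KrP 1, KrP 3, WT 1 or WT 3 also ended that call (limma adjusted p 0.0772, 0.196, 0.0957 and 0.165). The part of such cells in the Cd14 values was not tested, and in sorted bulk cells fewer cells of a type and less RNA per cell cannot be told apart.

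The receptor pair downstream of Cd14 was not called. Tlr4 averaged 9.86 ± 0.21 in KrP and 9.74 ± 0.22 in WT samples (SD, n = 3 each; limma adjusted p = 0.779). Ly96 averaged 11.68 ± 0.30 in KrP and 11.79 ± 0.08 in WT samples (limma adjusted p = 0.788). Of 22 measured genes of lipopolysaccharide sensing, 0 were called higher and 1 lower, with a median log2 fold change of 0.00. At an unadjusted p under 0.05, 0 were higher and 4 lower, where 2094 of all 22180 genes were higher and 1455 lower. With the block 1 was called higher and 4 lower. The called share of all genes was 2.18%, and 8.35% with the block. Nod2, an intracellular sensor of bacterial wall fragments, had 6.73, 7.42 and 7.19 in KrP samples, against 8.08, 8.13 and 8.13 in WT samples. It was 2.00-fold lower in KrP samples (limma adjusted p = 0.0327; its log2 fold change of -1.0 was -0.64 with its probe sets averaged), a call that ended without KrP 3 (0.148), WT 1 (0.087), WT 2 (0.0913) or WT 3 (0.149). Tnfaip3 and Irak3, brakes on this pathway, and Tlr3, the sensor of double-stranded RNA, were called with the block and not in the otherwise same fit without it. So was Acod1, which makes itaconate. These 4 are named after their values were seen. Tnfaip3 averaged 10.01 ± 0.34 in KrP and 10.71 ± 0.29 in WT samples (limma adjusted p = 0.145, or 0.00706 with the block). Irak3 had a log2 fold change of -0.38. That of Tlr3 was 0.53, or 0.27 without KrP 1. That of Acod1 was -0.50, and it was -0.08 without KrP 1, -0.86 without KrP 2, -0.87 without WT 1 and -0.26 without WT 2.

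Both protease inhibitors of the group were higher in KrP fibroblasts. Slpi had log2 values of 12.23, 12.25 and 12.14 in KrP samples, against 11.09, 11.31 and 10.90 in WT samples. The KrP samples lay close together (SD 0.06), and none overlapped with WT. The difference was 2.15-fold (log2 fold change 1.11 ± 0.11 SE). A2m had 7.16, 6.79 and 7.19 in KrP samples, against 6.08, 6.46 and 6.27 in WT samples. Sample 2 brought the groups closest, with a difference of 0.33 between KrP 2 and WT 2, against 1.08 and 0.92 for numbers 1 and 3. The difference was 1.71-fold (log2 fold change 0.78 ± 0.15 SE), with 2 WT arrays at or under the background guide.

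Among 20 other measured whey acidic protein and serine protease inhibitors and related genes, 2 rose and none fell, where 2.18% of all genes were called. Their median log2 fold change was 0.12. Timp1, an inhibitor of metalloproteinases, averaged 13.18 ± 0.15 in KrP and 12.18 ± 0.20 in WT samples (SD, n = 3 each; limma adjusted p = 0.00707, or 0.0592 without KrP 3). Serpinf1, which encodes the anti-angiogenic factor PEDF, averaged 10.66 ± 0.10 in KrP and 10.11 ± 0.09 in WT samples (limma adjusted p = 0.0456). That call ended with quantile normalisation (0.0639) and without KrP 1 (0.0797), KrP 3 (0.258), WT 1 (0.118), WT 2 (0.0827) or WT 3 (0.217). Wfdc2, a relative of Slpi, lay at 6.16 ± 0.08 in KrP and 6.29 ± 0.19 in WT samples, near the background guide (limma adjusted p = 0.675). Lrp1, the receptor that clears A2m with its bound proteases, averaged 12.79 ± 0.14 in KrP and 12.58 ± 0.05 in WT samples (limma adjusted p = 0.297).

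Pla2g2e had the opposite direction. Its log2 values were 8.37, 9.24 and 8.46 in KrP samples, against 10.76, 11.05 and 10.96 in WT samples. The highest KrP sample, KrP 2, lay well below the lowest WT sample. Pla2g2e was 4.70-fold lower (log2 fold change -2.23 ± 0.23 SE), and the differences by sample number were -2.39, -1.81 and -2.50. Of 13 other phospholipase A2 genes and their receptor, 0 rose and 1 fell, and with the block 0 rose and 2 fell. Calls over all genes were 2.18%, and 8.35% with the block. Pla2g7, which inactivates platelet-activating factor, had 6.03, 5.70 and 5.97 in KrP samples, against 7.55, 8.27 and 7.93 in WT samples. It was lower in KrP samples (log2 fold change -2.02 ± 0.19 SE, limma adjusted p = 0.00299) and kept its call in each fit that left out 1 sample. Its 3 KrP values lay under the background guide, where differences are compressed, so the log2 fold change of Pla2g7 is not exact. Pla2g5, which lies next to Pla2g2e apart from a predicted gene, averaged 7.57 ± 0.46 in KrP and 8.31 ± 0.33 in WT samples (SD, n = 3 each; limma adjusted p = 0.203, or 0.013 with the block). Pla2g2d, which follows it, had a log2 fold change of 0.16 ± 0.14 SE (limma adjusted p = 0.669), and Pla2r1, a receptor of secreted phospholipases, of 0.05 ± 0.11 SE (0.876).

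The remaining defence proteins, Lcn2 and Hp, were not called, and their groups overlapped. Lcn2 had values of 8.23, 8.51 and 8.12 in KrP samples, against 7.62, 8.32 and 7.31 in WT samples. KrP samples were on balance higher, and WT 2 lay above KrP 1 and KrP 3. The log2 fold change was 0.54 ± 0.25 SE, or 0.82 without WT 2 and 0.32 without WT 3. Lcn2 is also made by keratinocytes and neutrophils. WT 2 had the highest log2 summed level of 10 keratinocyte markers, 10.80, where KrP samples lay between 10.14 and 10.43 and the other WT samples at 10.33 and 10.59. The epithelial marker Epcam was 6.33 in WT 2 and 4.89 to 5.21 in the KrP samples. Of 11 neutrophil markers, 10 lay at or below the background guide, and the log2 summed level was 9.67 to 10.09 in KrP and 9.42 to 9.62 in WT samples. The exception, named after its values were seen, was the collagenase Mmp8, at 8.79 ± 0.45 in KrP and 7.70 ± 0.36 in WT samples (SD, n = 3 each; limma adjusted p = 0.0821, or 0.00331 with the block). The median log2 fold change of the list was 0.01, and S100a8, a major granulocyte protein, had -0.45. The part of these cells in the Lcn2 values was not tested. Hp had 6.37, 6.30 and 6.55 in KrP samples, against 6.36, 6.39 and 6.36 in WT samples. All 6 values lay just above the background guide, with a log2 fold change of 0.04 ± 0.11 SE.

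The receptors of Lcn2 and Hp were not called either. Slc22a17, a receptor of Lcn2, had a log2 fold change of 0.22 ± 0.13 SE (limma adjusted p = 0.484). Cd163, which takes up haptoglobin-haemoglobin complexes on macrophages, lay under the background guide on all arrays (log2 fold change -0.04 ± 0.11 SE, limma adjusted p = 0.903). Of 17 measured receptors and carriers of the 10 proteins, 1 rose and 1 fell, and with the block 2 rose and 2 fell. Over all genes 2.18% were called, and 8.35% with the block. Scarb1, a lipoprotein receptor that also binds serum amyloid A, averaged 10.15 ± 0.20 in KrP and 9.38 ± 0.10 in WT samples (SD, n = 3 each; limma adjusted p = 0.0323). Its adjusted p was 0.0516 without KrP 1, 0.171 without KrP 3, 0.0796 without WT 1, 0.098 without WT 2 and 0.142 without WT 3. Fpr2, a receptor for serum amyloid A on white blood cells, was called lower at 4.11 ± 0.04 in KrP and 4.66 ± 0.02 in WT samples (limma adjusted p = 0.0287), all under the background guide, where a difference says little about expression. That call ended without each sample except KrP 2, at an adjusted p of 0.0844 (KrP 1 left out), 0.133 (KrP 3), 0.0874 (WT 1), 0.0679 (WT 2) and 0.133 (WT 3). Of the genes called with the block and not in the otherwise same fit without it, Anxa2 had a log2 fold change of 0.60 (limma adjusted p = 0.116, or 0.00784 with the block). Hmox1, the haem-degrading enzyme, had -0.50 (limma adjusted p = 0.34, or 0.034 with the block), and -0.21 without KrP 1. Both are named after their values were seen.

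**Figure D2:**
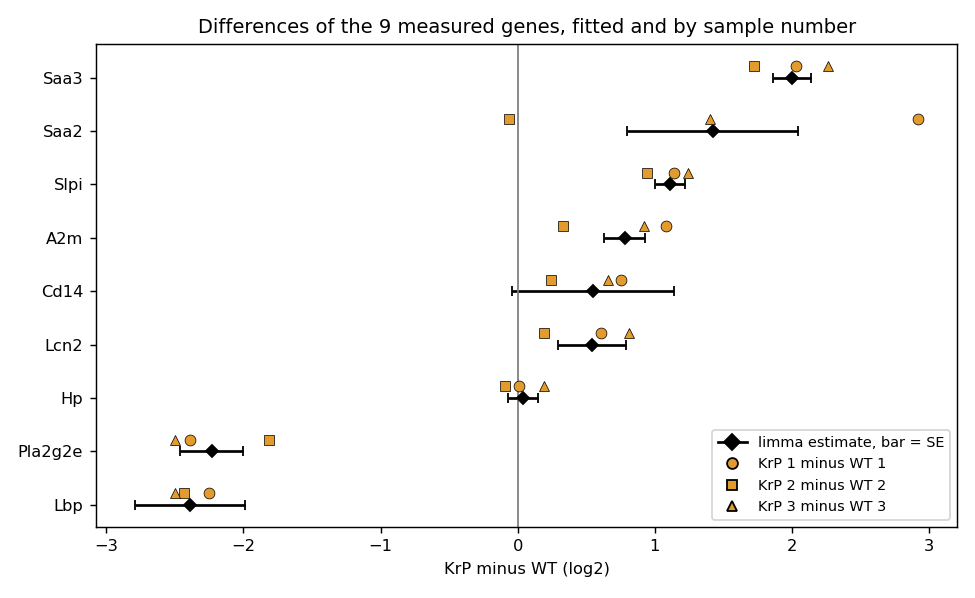
KrP minus WT difference in log2 units for the 9 genes with their own probe set. Diamonds with bars are the limma estimate and its SE (3 samples a group), and orange symbols are the differences between samples of the same number. For Cd14 the 3 same-number differences, 0.24 to 0.75, lie much closer together than the SE of 0.59, whereas for Saa2 they run between -0.06 and 2.92.

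Samples with the same number tended to share their place within both groups. For Lbp, Lcn2, Slpi, Pla2g2e and Cd14, that is 5 of the 9 genes (55.6%), the 3 numbers stood in the same order in KrP and in WT samples, as for 26.1% of all genes. Number 2 was the highest of its group for Lbp, Lcn2, Slpi and Pla2g2e and the lowest for Cd14. The shared Saa1/Saa2 probe set had its order in common between groups too, with number 1 highest and number 2 lowest. The labels do not say what a number stands for.

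Genes that call out the acute-phase response were measured next to the proteins themselves. Of 31 measured genes of interleukin 6 and interleukin 1 signalling, 1 rose and 0 fell, and with the block 4 rose and 4 fell. The share called among all genes was 2.18%, and 8.35% with the block. The median log2 fold change was -0.05. Osmr, the receptor subunit for oncostatin M, had 12.76, 12.70 and 12.71 in KrP samples, against 12.34, 12.40 and 12.36 in WT samples. It rose 1.28-fold (limma adjusted p = 0.0347), with no overlap and with spreads of 0.03 in both groups. The call ended without the variance trend (0.113), without both samples numbered 2 (0.0614) and without KrP 1 (0.0714), KrP 3 (0.186), WT 1 (0.103), WT 2 (0.082) or WT 3 (0.164).

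None of the cytokines in that list was called by limma without the block or array weights, on all 6 samples and 22180 genes. Il6 had 11.05, 12.04 and 10.96 in KrP samples, against 11.72, 12.25 and 11.44 in WT samples. Each KrP sample lay below the WT sample of its number, while the groups overlapped (log2 fold change -0.45 ± 0.30 SE, limma adjusted p = 0.529, or 0.0437 with the block). The log2 fold change was -0.80 without KrP 2, -0.26 without KrP 3 and -0.23 without WT 2. The following 4 genes of that list are named after their values were seen. Tnf had 7.40, 8.25 and 7.38 in KrP samples, against 9.03, 10.45 and 8.67 in WT samples, a log2 fold change of -1.71 ± 0.45 SE (limma adjusted p = 0.107, or 0.00397 with the block). Il11, a relative of Il6, averaged 8.18 ± 0.71 in KrP and 9.77 ± 0.29 in WT samples (SD, n = 3 each; limma adjusted p = 0.0524, or 0.00612 with the block). Tnfrsf1b, a receptor of Tnf, averaged 10.49 ± 0.51 in KrP and 11.70 ± 0.36 in WT samples (limma adjusted p = 0.067, or 0.00176 with the block). Il33, an alarmin of the interleukin 1 family, had 10.41, 12.20 and 11.47 in KrP samples, against 8.22, 10.23 and 9.05 in WT samples, with a log2 fold change of 2.19 ± 0.56 SE. KrP and WT values of Il33 did not overlap, and its limma adjusted p was 0.0994, or 0.000661 with the block. The receptor subunits Il1rap and Il6ra had log2 fold changes of 0.80 and 0.41 (limma adjusted p = 0.122 and 0.103, or 0.00755 and 0.0346 with the block), and they too are named after their values were seen. With its probe sets averaged, Il1rap had 0.39.

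Of the signal carriers and transcription factors of the pathway, Il6st, Stat3, Cebpb and Cebpd lay close to no difference. The log2 fold change was -0.05 ± 0.09 SE for Il6st, the common receptor subunit of the family, and 0.08 ± 0.09 for Stat3 (limma adjusted p = 0.849 and 0.732). For the C/EBP factors it was -0.11 ± 0.10 in Cebpb and -0.01 ± 0.17 in Cebpd (0.645 and 0.982). Il1r1, the receptor of interleukin 1, averaged 12.30 ± 0.09 in KrP and 12.07 ± 0.11 in WT samples (SD, n = 3 each; limma adjusted p = 0.249). Socs3, a feedback inhibitor induced by Stat3, averaged 10.52 ± 0.19 in KrP and 10.18 ± 0.09 in WT samples (limma adjusted p = 0.248). Nfkbia, a feedback inhibitor induced by NF-kB, averaged 12.64 ± 0.19 in KrP and 12.87 ± 0.09 in WT samples (limma adjusted p = 0.306). Nfkbiz had a log2 fold change of -0.05 ± 0.13 SE (limma adjusted p = 0.897). KrP and WT values did not overlap for Il1r1 and Socs3, both higher in KrP samples, as for 20.3% of all genes. Array weights called Il1r1, Socs3 and Nfkbia (limma adjusted p = 0.0176, 0.0143 and 0.0134), where 6410 of all 22180 genes were called.

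**Figure D3:**
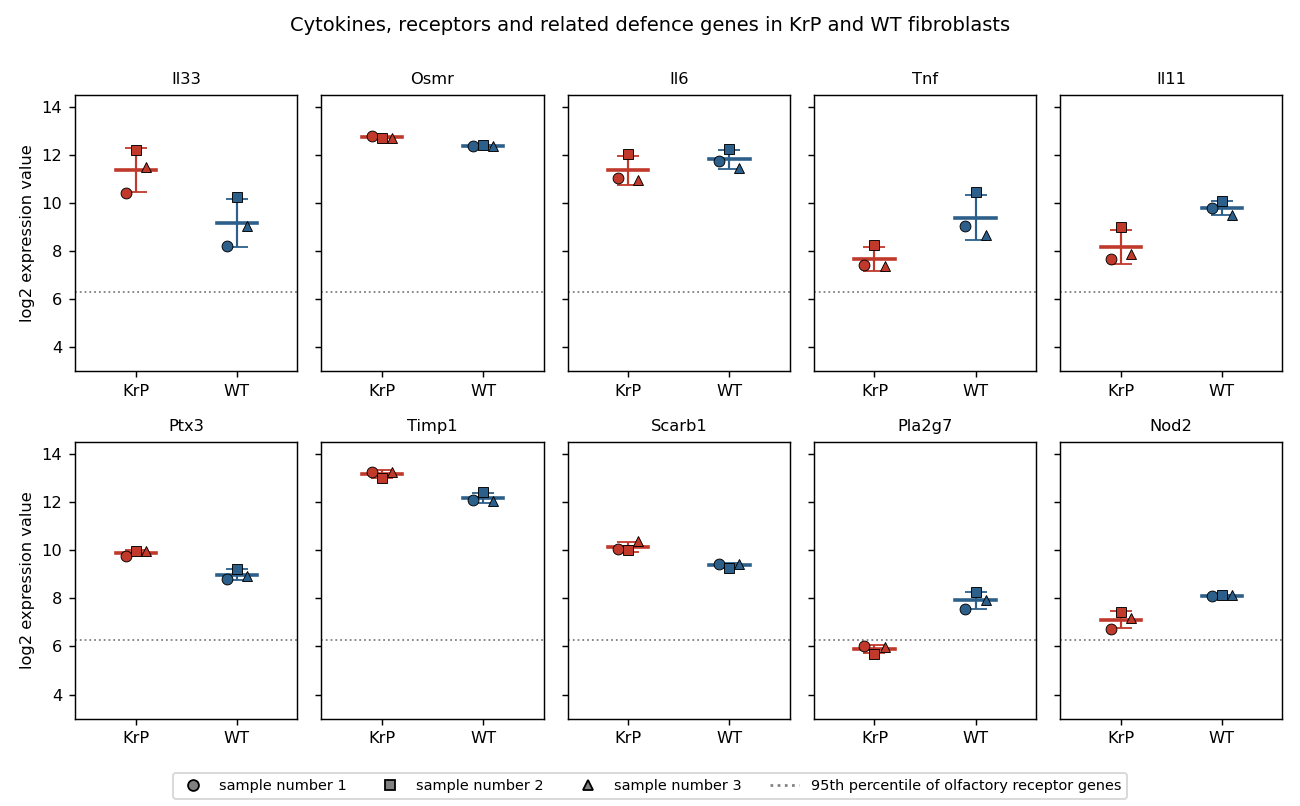
Log2 expression value of 10 related genes in KrP (left, red) and WT (right, blue) samples, drawn as for the members, with the mean and SD (n = 3 each) and the background guide at 6.28. Il33, Osmr, Ptx3, Timp1 and Scarb1 lay higher in all KrP samples than in any WT sample, Tnf, Il11, Pla2g7 and Nod2 lay lower, and Il6 overlapped.

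Other acute-phase plasma proteins were mostly low and not called. Of 26 measured, 12 had a mean above the background guide, and 1 rose and 0 fell, where 2.18% of all genes were called. The median log2 fold change was -0.01. Ptx3, a long pentraxin that fibroblasts can make, had 9.77, 9.96 and 9.97 in KrP samples, against 8.79, 9.22 and 8.95 in WT samples. It rose 1.88-fold (limma adjusted p = 0.0207), and the adjusted p was 0.142 without KrP 3, 0.0657 without WT 1 and 0.123 without WT 3. Serpina3n, a serine protease inhibitor, averaged 13.07 ± 0.35 in KrP and 12.65 ± 0.29 in WT samples (SD, n = 3 each; limma adjusted p = 0.34). Cp, the copper carrier ceruloplasmin, averaged 8.93 ± 0.65 in KrP and 8.66 ± 0.55 in WT samples (limma adjusted p = 0.793). Orm1 lay at 6.64 ± 0.17 in KrP and 6.59 ± 0.29 in WT samples (limma adjusted p = 0.917). C3 was not analysed here.

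Of 19 other secreted antimicrobial proteins, 4 had a mean above the background guide, and 0 rose and 0 fell by limma. At an unadjusted p under 0.05, 0 were higher and 1 lower, and the block also gave 0 in both directions. Ltf, the iron-binding protein lactoferrin, lay under the background guide on all arrays, at 5.37 ± 0.14 in KrP and 5.30 ± 0.13 in WT samples (limma adjusted p = 0.843). Over the 7 lists of related genes together, 147 had values, of which 5 rose and 3 fell, and with the block 10 rose and 12 fell. Among all genes 2.18% were called, and 8.35% with the block.

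The genes whose profiles were most like those of Saa3 and Lbp were found among 12574 genes, by the root mean square difference of log2 values centred on each gene's mean over the 6 samples. For Saa3 these were the phosphatase Ptpn5 (0.163), the adaptor Dok6 (0.192) and the secreted protein Pi15 (0.202). Dok6 averaged 8.06 ± 0.24 in KrP and 6.40 ± 0.16 in WT samples, and Pi15 averaged 11.65 ± 0.41 in KrP and 9.81 ± 0.21 in WT samples (SD, n = 3 each). For Lbp they were Tfpi2 (0.311), an inhibitor of serine proteases, Cd40 (0.33), a receptor of the tumour necrosis factor family, and Iigp1 (0.33), a GTPase induced by interferon gamma. Cd40 had 7.08, 8.83 and 7.96 in KrP samples, against 9.59, 10.65 and 9.97 in WT samples. As in Lbp, sample 2 was the highest of both groups. These 6 genes were selected by the same samples, so their differences are a description.

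**Figure D4:**
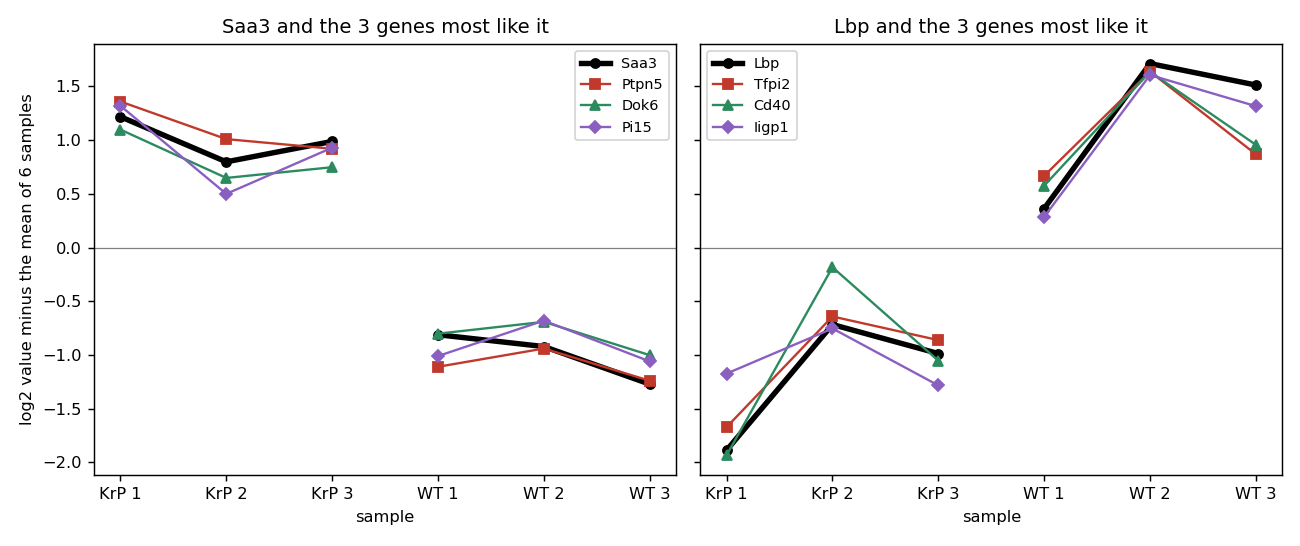
Log2 values of Saa3 (left) and Lbp (right), each with the 3 genes most like it, after subtracting each gene's mean over the 6 samples. The x axis lists the KrP samples and then the WT samples. The Saa3 profiles are all higher in KrP than in WT samples, with Pi15 between 11.23 and 12.05 before centring in KrP samples, and the Lbp profiles are all lower.

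Markers of cell types that the sort should leave out were also compared. The markers named here, and Csf1r, Epcam, Itga6 and Kit above, are named after their values were seen. Of 8 endothelial markers, 2 fell (Cldn5 and Tek) and 0 rose, and 3 fell and 0 rose with the block. For this and the following lists, 2.18% of all genes were called, and 8.35% with the block. At an unadjusted p under 0.05, 1 was higher and 3 lower, where 2094 of all 22180 genes were higher and 1455 lower. The log2 summed level was 9.76 to 9.99 in KrP and 10.05 to 10.44 in WT samples, and the median log2 fold change of the list was -0.05. Kdr, a receptor of vascular endothelial growth factor, had 7.76, 6.84 and 7.31 in KrP samples, against 9.28, 8.19 and 8.67 in WT samples (limma adjusted p = 0.0658, 0.0375 with quantile normalisation or 0.00158 with the block). Cdh5, the endothelial cadherin, had the opposite sign (log2 fold change 0.54 ± 0.23 SE, limma adjusted p = 0.304), while Pecam1, Vwf and Lyve1 had values between -0.05 and -0.03. Cldn5 averaged 6.21 ± 0.12 in KrP and 7.16 ± 0.19 in WT samples (SD, n = 3 each; limma adjusted p = 0.013, or 0.0967 without KrP 3 and 0.0629 without WT 3). Tek lay at 5.76 ± 0.23 in KrP and 6.52 ± 0.14 in WT samples (limma adjusted p = 0.0386) and was not called in any of the 6 fits without 1 sample (0.0524 to 0.125). Its KrP values lay under the background guide, and its log2 fold change of -0.76 was -0.48 with array weights. Of 8 pericyte and smooth muscle markers, 0 rose and 1 fell, and with the block 1 rose and 1 fell. Cspg4 fell (log2 fold change -1.10 ± 0.19 SE, limma adjusted p = 0.0298, or between 0.0704 and 0.148 without KrP 3, WT 1, WT 2 or WT 3). Acta2, smooth muscle actin, had 10.69, 11.08 and 12.36 in KrP samples, against 9.64, 10.17 and 10.38 in WT samples. These groups did not overlap (log2 fold change 1.31 ± 0.40 SE, limma adjusted p = 0.154, or 0.0138 with the block), and the log2 fold change was 0.82 without KrP 3. Tagln, another smooth muscle protein, had 0.84 ± 0.59 SE (limma adjusted p = 0.551). The log2 summed level of that list was 11.64 to 13.22 in KrP and 11.10 to 12.04 in WT samples. The part of such cells in the values of the 10 genes was not tested. The lists for keratinocytes, mast cells, adipocytes, dendritic and T cells, neutrophils, and Schwann cells and melanocytes gave 0 called genes by limma. At an unadjusted p under 0.05 none of these lists had more than 1 gene higher or 2 lower, and with the block neutrophils gave 1 higher and dendritic and T cells 1 lower. Of 9 fibroblast markers 0 were called by limma (5 higher and 0 lower at an unadjusted p under 0.05), 3 were higher with the block, and their log2 summed level was 15.82 to 16.04 in KrP and 15.66 to 15.81 in WT samples.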

How the data were processed

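Total RNA (100 ng, per the labels' protocols) was labelled with biotin and hybridised to 1 array for each of 6 samples. The deposited table holds the authors' log2 expression values for 34390 probe sets. Per the submitters' processing notes, RMA and Partek were used, with no version or role given. The background correction, the build and any filter were not given in the sources used here. Precision is limited by the number of arrays.

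Names came from the annotation of the platform (23521 with 1 gene, 1814 with several, 9055 with none), and gene IDs matched 23328 of the single-gene ones to RefSeq's GRCm38.p6 gene table, used for names and gene order. For the 1082 genes with several probe sets the one with the highest mean was taken, which left 22180 genes. No filter was applied. KrP and WT were compared with limma 3.58.1 in R 4.3.3 (lmFit, then eBayes with a trend; 3 samples a group) and Benjamini-Hochberg adjustment over all genes. On simulated data with this table's means and spreads, it recovered 97 of 100 genes changed by 2 log2 units and 69 of 100 changed by 1. The simulated noise was independent and of equal spread on all arrays. The real arrays were related by sample number and uneven in weight, so these rates need not hold for them. Python 3.11.15 was used with Biopython 1.88 to align promoters and matplotlib 3.10.9 for figures.

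The genes and lists were chosen with earlier results of these data known. Named genes are the members, up to 4 called genes per list and direction, 26 genes set in the rule and the 3 genes most like Saa3 or Lbp. Deviations from group means correlated across genes by 0.414, 0.35 and 0.12 between samples of the same number, all above 0.1, so the numbers were read as pairs. Between samples of different numbers the correlations ran from -0.385 to 0.067, the highest being KrP 3 with WT 2. Deviations within a group cancel out, so these correlations are not independent, and the pairing of number 3 is weak. The pairing comes from the data, not from a label, and p-values with that block may be too small. Alternatives changed the block, variance prior, array weights, filter, normalisation, probe set rule and samples.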

Additional observations from a re-analysis of the deposited data

Results flagged for a closer look

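The probe set annotated to both Saa1 and Saa2 lay outside the gene table, since it names no single gene, and carried a signal above the WT level. Its mean was 6.67 ± 1.05 in KrP and 4.42 ± 0.21 in WT samples (SD, n = 3 each), a difference of 2.25 on the log2 scale that was not tested. The 3 differences by sample number were 3.13, 1.45 and 2.16. All 3 WT values and that of KrP 2 (5.68) lay under the background guide.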

How the results depend on the processing

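The count of all called genes, 483, was 1851 with the replicate block, 6410 with array weights, 890 without both samples numbered 2 (added after seeing the data) and 85 to 1116 when 1 sample was left out. Array weights gave KrP 3 a weight of 7.91 and WT 3 a weight of 2.66, against 0.409 to 0.626 for the other samples. The 5 called members became 3 to 5 when 1 sample was left out, with 3 called without KrP 3, WT 2 or WT 3. With array weights 7 were called, Saa2 and Lcn2 being the additions, where 6410 of all 22180 genes were called. The 8 called related genes became 22 with the replicate block, 45 with array weights, 13 without both samples numbered 2, and 1 to 15 when 1 sample was left out. Quantile normalisation gave 207 higher and 242 lower calls, against 255 and 228 as deposited. Genes called with the block were in part also called under other settings. Among others, array weights called Tnf (limma adjusted p = 0.00425), Il11 (0.000561), Il33 (0.000688), Tnfaip3 (0.00238), Irak3 (0.00214), Tlr3 (0.0284), Il1rap (0.00181), Il6ra (0.00884) and Anxa2 (0.00142). Without KrP 2, the calls included Il11 (0.00259), Tnfaip3 (0.0329), Il1rap (0.0262), Anxa2 (0.0354), Tnfrsf1b (0.0112), Pla2g5 (0.0395) and Cd40 (0.00894). Without both samples numbered 2, they included Tnf (0.00761), Il11 (0.00394), Il33 (0.026), Tnfaip3 (0.0368), Il1rap (0.0409), Tnfrsf1b (0.0185), Pla2g5 (0.0499) and Cd40 (0.0112). Il11 (0.0482) and Cd40 (0.048) were also called without the lower 25% of genes. The replicate block changed no other call of a named gene than those given in the report and that of Cd40 (limma adjusted p = 0.0514, or 0.00158 with the block).

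Of the members, Hp alone changed sign, at -0.04 without KrP 3 (range -0.04 to 0.09 over the left-out samples). Other sign changes fell on genes that were not called. With array weights the log2 fold change was -0.05 for Tlr4, 0.06 for Saa4, -0.02 for Orm1, -0.0033 for Cp, -0.0035 for Pla2r1, -0.09 for Ltf and 0.05 for Wfdc2. Without both samples numbered 2 it was 0.08 for Ly96, 0.04 for Nfkbiz and -0.02 for Ltf, and with quantile normalisation it was -0.01 for Pla2r1. Over the fits without 1 sample it ran between -0.0017 and 0.20 for Tlr4, -0.26 and 0.04 for Ly96, -0.13 and 0.0033 for Il6st, -0.01 and 0.13 for Stat3, -0.18 and 0.10 for Cebpd, -0.16 and 0.02 for Nfkbiz, -0.20 and 0.07 for Saa4, -0.11 and 0.14 for Orm1, -0.09 and 0.55 for Cp, -0.10 and 0.03 for Cd163, and -0.01 and 0.14 for Ltf. The cause of these shifts was not tested. Saa2 could not be fitted without the lower 25% of genes, nor Saa2, A2m and Hp without the lower 50%.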
